A study of Sus scrofa with 16 samples.

Results

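The genes described here encode enzymes that conjugate foreign and endogenous compounds, oxidise or reduce alcohols, aldehydes, epoxides and quinones, and remove superoxide and peroxides, together with the thioredoxin proteins. They were taken by symbol, from the probe sets that the array's annotation pairs with 1 gene: symbols beginning with GST, UGT, ALDH, ADH and a digit, AKR, EPHX, NQO, GPX, PRDX or TXN, and CAT, SOD1, SOD2 and SOD3, leaving out AKR1C1. This gave 55 genes of the 6765 that the array names in this way, and each was represented by its probe set of highest mean over the 16 arrays. The samples were liver and subcutaneous backfat from Iberian pigs aged 211 days, each hybridised to 1 Affymetrix porcine array. The 8 groups, each of 2 arrays, were the combinations of tissue (liver or backfat), sex (male or female) and feeding level (high, or low through a restriction of 20%). Before restriction all pigs received one pelleted diet in 2 daily meals. Castration of the males is not stated in the labels, and each sample is a piece of whole tissue.

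Glutathione S-transferases join glutathione to reactive compounds, and UDP-glucuronosyltransferases join glucuronic acid to drugs, steroids and bilirubin, which makes both groups central to the clearing work of hepatocytes. Aldehyde dehydrogenases, aldo-keto reductases, epoxide hydrolases and quinone reductases convert reactive carbonyls, epoxides and quinones to less reactive products. Superoxide dismutases turn superoxide into hydrogen peroxide, which catalase splits into water and oxygen and which glutathione peroxidases and peroxiredoxins reduce with electrons from glutathione or thioredoxin, and many of these genes are known targets of the transcription factor NRF2.

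The values are GCRMA expression values on a log2 scale, made by the authors. A value of 4 was taken as the floor below which a probe set was not told apart from background, and array medians lay between 3.94 and 4.13. Pearson's r between arrays was 0.973 to 0.991 within liver, 0.972 to 0.992 within backfat and 0.809 to 0.840 across the tissues, over all probe sets, which are not independent replicates. Marker genes bore out the tissue labels. The mean of 10 adipocyte markers was 11.19 to 11.89 on backfat arrays and 3.99 to 4.60 on liver arrays. The mean of 17 hepatocyte markers was 13.90 to 14.11 on liver arrays. On backfat arrays the hepatocyte mean ran from 3.27 to 6.49, and it was highest on the arrays of male 15, at 6.49, and female 20, at 6.38. Albumin (ALB) ranged from 3.62 to 10.09 in backfat, against 15.06 to 15.28 in liver. In backfat it was 9.30 on female 20, but also 9.44 on female 23 and 9.11 on male 14. The comparisons of named genes and the counts of the gene lists were also run without the backfat arrays of male 15 and female 20. So were the tissue differences within each sex. Female 23 and male 14 stayed in that run. The calls that changed are given below, but for tissue within each sex only those of NQO1, PRDX6, GSTA4 and PRDX4. Calls of other genes within a sex changed too, CAT and TXN among them. Both arrays left out are low-fed, so low-fed backfat was then left with male 16 and female 23 alone. Whether a call changed there through the hepatocyte RNA or through the fewer arrays was not tested. Among the enzyme genes the tissue call lost was that of ALDH7A1, with a log2 difference, liver minus backfat, of 0.37 (limma adjusted p = 0.101) in place of 0.46 (0.0212). In whole tissue, fewer cells of a type and less RNA per cell cannot be told apart.

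Of the 55 genes, 42 stood above 4 on all 16 arrays. Those above 4 on no array were ALDH1L2, GPX2, GPX5, GPX6, SOD3 (the extracellular superoxide dismutase) and TXNRD3, whose highest value was 3.87, and these 6 were not tested. That left 49 genes for comparisons over both tissues, 48 for those within liver and 46 for those within backfat. GPX7 was not tested in liver, and AKR1E2, ALDH5A1 and UGT2B31 were not tested in backfat. UGT2B31 was the only UDP-glucuronosyltransferase with a probe set of its own. GSTP1, ADH4 and AKR1B1 had no probe set paired with that symbol alone.

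The tissues were compared first. Of the 49 tested genes, 42 passed limma's test at an adjusted p of 0.05, 31 of them higher in liver and 11 lower. UGT2B31, AKR1E2 and ALDH5A1 were above 4 in liver alone, and GPX7 in backfat alone. They entered the fit through that tissue, so their calls were in part set by the filter. Among all probe sets tested 75.7% passed, 32.2% higher in liver and 43.6% lower. The median difference of the 49 genes was 0.78 on the log2 scale, and that of all probe sets was -0.15. The median size of the difference, without its sign, was 1.85 for these genes and 0.757 for all probe sets. These sets are not alike, since each gene here is its brightest probe set and all probe sets include dimmer ones. With the brightest probe set of every named gene, 4056 of 5260 tested passed for tissue, with a median difference of -0.18. The conjugating and aldehyde-oxidising genes lay mostly on the liver side, and the peroxide and thioredoxin genes were divided.

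**Figure D1:**
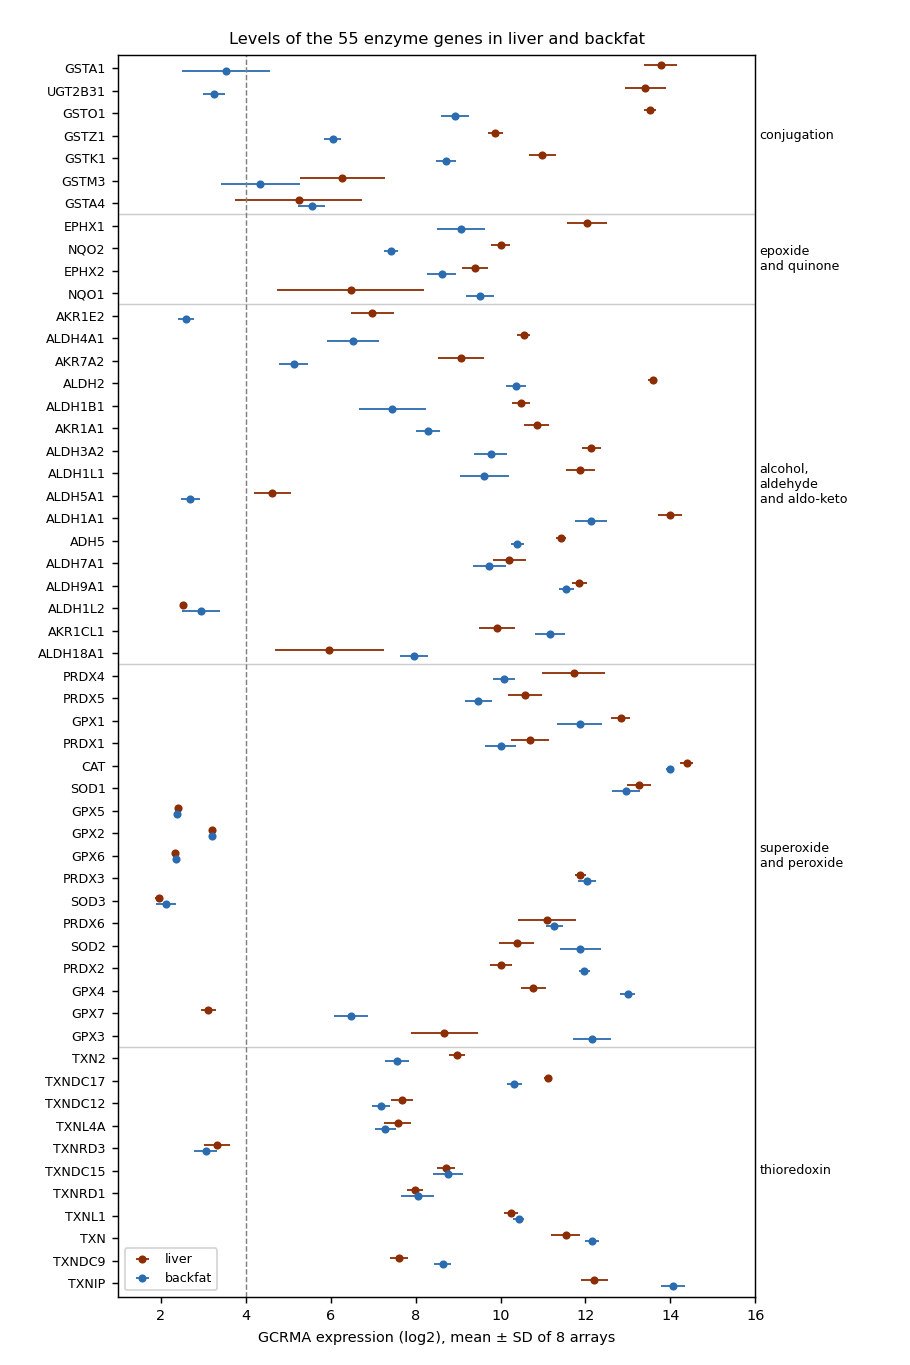
Mean ± SD of the GCRMA expression value (log2, horizontal axis) of each of the 55 genes (rows, grouped by role) over the 8 liver arrays (brown) and the 8 backfat arrays (blue), with the floor of 4 dashed. GSTA1 and UGT2B31 stood at 13.78 and 13.41 in liver and at 3.54 and 3.25 in backfat, and NQO1, GPX3, GPX4 and GPX7 lay further right in backfat. Rows are separate probe sets, so levels compare across tissues and not across genes.

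Of the 7 conjugating genes, 6 were higher in liver and 1, GSTA4, did not pass. GSTA1, an alpha-class glutathione S-transferase, ran from 13.00 through a median of 13.82 to 14.21 in liver, and from 2.40 through 3.47 to 5.03 in backfat. In backfat it was above 4 on 2 of 8 arrays, male 15 at 5.03 and female 20 at 5.01, the same arrays on which the hepatocyte marker mean was highest. With values under 4 set to 4, since most backfat arrays lay below that floor, its tissue difference was 9.52 (limma adjusted p = 3.76e-12, and at most 4.38e-06 over all alternatives). The tissues did not overlap. Another GSTA1 probe set, of mean 8.03 over the 16 arrays, was above 4 on fewer than 2 backfat arrays. It was not tested within backfat. With the mean of its probe sets the tissue difference of GSTA1 was 7.13. The part of hepatocyte RNA in the GSTA1 values of backfat was not tested. UGT2B31, which glucuronidates steroids and drugs, lay between 12.41 and 13.92 in liver (median 13.58) and below 4 on every backfat array. Against the floor of 4 it was at least 681-fold higher in liver (adjusted p = 6.11e-14).

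**Figure D2:**
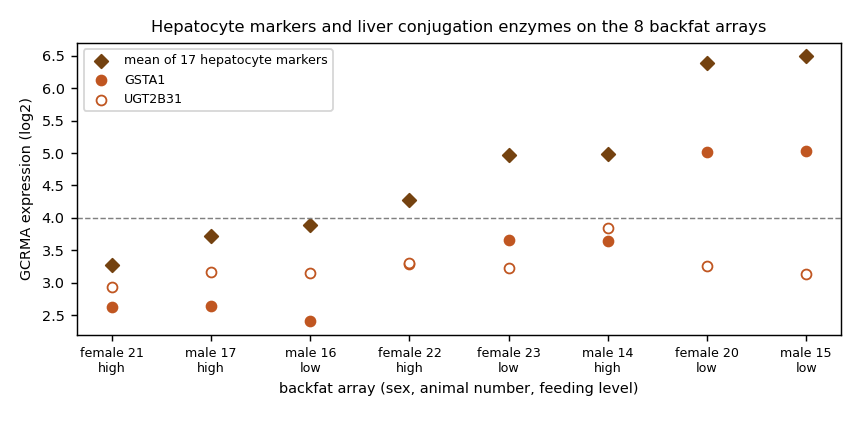
GCRMA expression values (log2, vertical axis) on the 8 backfat arrays, ordered by the mean of 17 hepatocyte markers (diamonds), with GSTA1 as filled and UGT2B31 as open circles and the floor of 4 dashed. The marker mean rises from 3.27 to 6.49, GSTA1 is above 4 only on female 20 and male 15, and UGT2B31 is below 4 on all 8 arrays.

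GSTO1, the omega-class enzyme that reduces dehydroascorbate, ran from 13.36 to 13.73 in liver and from 8.32 to 9.31 in backfat, a difference of 4.60 ± 0.10 (SE; adjusted p = 2.44e-12). GSTZ1, which works in tyrosine breakdown, was at 9.88 ± 0.17 (SD, n = 8) in liver and 6.05 ± 0.20 (SD, n = 8) in backfat, and differed by 3.83. GSTK1, the kappa-class enzyme of mitochondria and peroxisomes, was higher in liver by 2.26 ± 0.13 (SE). None of these 3 genes had overlapping tissues. GSTM3, a mu-class enzyme, overlapped: it ran from 5.16 to 7.78 in liver and from 2.62 to 5.48 in backfat, where 5 of 8 arrays were above 4, and its difference of 1.93 ± 0.49 (SE) passed with an adjusted p of 0.0037.

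All 4 epoxide and quinone genes passed, 3 of them higher in liver. EPHX1, the microsomal epoxide hydrolase, was at 12.04 ± 0.47 (SD, n = 8) in liver and 9.07 ± 0.57 in backfat, a difference of 2.96 ± 0.22 (SE; adjusted p = 1.55e-07). EPHX2, the soluble enzyme that hydrolyses epoxy fatty acids, was higher in liver by 0.78 ± 0.11 (SE) with overlapping tissues. NQO2, a quinone reductase that uses dihydronicotinamide riboside, was higher in liver by 2.58 ± 0.09 (SE). NQO1, the quinone reductase that uses NADH or NADPH, went the other way, with liver values from 4.78 through 6.23 to 8.70 and backfat values from 9.06 through 9.59 to 9.92. Its tissue difference was -3.05 ± 0.20 (SE; adjusted p = 6.70e-08), and its liver arrays fell apart by sex.

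Of the 15 alcohol, aldehyde and aldo-keto genes tested, 13 were higher in liver and 2 lower, so that every one of them passed. ALDH2, the mitochondrial enzyme that oxidises acetaldehyde, ran from 13.42 through 13.57 to 13.77 in liver and from 10.08 through 10.36 to 10.65 in backfat, a difference of 3.22 ± 0.10 (SE; adjusted p = 4.34e-11). ALDH1B1, also mitochondrial, differed by 3.02 ± 0.18 (SE). ALDH4A1, an enzyme of proline breakdown, was at 10.55 ± 0.16 (SD, n = 8) in liver and 6.53 ± 0.62 in backfat, and differed by 4.01. These 3 genes did not overlap between the tissues. ALDH1A1, which oxidises retinaldehyde, differed by 1.85 ± 0.16 (SE), and its other probe set by 2.89. Across the 9 aldehyde dehydrogenases that were higher in liver the difference ran from 0.30 for ALDH9A1 to 4.01 for ALDH4A1.

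AKR1E2, which reduces anhydrofructose, was above 4 on all 8 liver arrays, from 6.11 to 7.78, and below 4 on every backfat array, at least 7.89-fold apart against that floor (adjusted p = 7.44e-11). AKR7A2, an aldo-keto reductase of succinic semialdehyde, was at 9.07 ± 0.54 (SD, n = 8) in liver and 5.13 ± 0.34 in backfat, a difference of 3.94. AKR1A1, the aldehyde reductase, differed by 2.56 ± 0.12 (SE). ADH5, the alcohol dehydrogenase that clears formaldehyde bound to glutathione, was higher in liver by 1.03 ± 0.09 (SE; adjusted p = 6.38e-07). The genes lower in liver were ALDH18A1 and AKR1CL1. ALDH18A1, which makes the precursor of proline, was at 4.88 to 8.04 in liver, where male 17 at 7.89 and female 20 at 8.04 stood far above the other arrays, and at 7.59 to 8.54 in backfat. Its difference was -1.99 ± 0.45 (SE; adjusted p = 0.00185). AKR1CL1, an aldo-keto reductase of the 1C type, was lower in liver by 1.24 (difference -1.24 ± 0.18, SE).

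Of the 13 superoxide and peroxide genes tested, 6 were higher in liver, 5 lower, and PRDX3 and PRDX6 did not pass. The glutathione peroxidases gave 1 higher and 3 lower of the 4 tested. GPX3, the secreted plasma form, ran from 7.15 through 8.86 to 9.63 in liver and from 11.48 through 12.17 to 12.79 in backfat, a difference of -3.48 ± 0.24 (SE; adjusted p = 1.02e-07). GPX7, a peroxidase of the endoplasmic reticulum, was below 4 on all liver arrays and between 5.81 and 7.16 in backfat, at least 5.6-fold higher in backfat (adjusted p = 3.44e-09). GPX4, which reduces lipid hydroperoxides in membranes, was at 10.77 ± 0.29 (SD, n = 8) in liver and 12.99 ± 0.17 in backfat, a difference of -2.22. A second GPX4 probe set, dim with a mean of 3.60, differed by 1.61 in the opposite direction, and the mean of both gave -0.31 (adjusted p = 0.038). GPX1, the cytosolic form, was higher in liver by 0.97 ± 0.12 (SE; adjusted p = 2.09e-05) with overlapping tissues.

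CAT, which encodes catalase, was at 14.14 to 14.61 in liver and 13.88 to 14.13 in backfat, and its difference of 0.40 ± 0.08 (SE) passed with an adjusted p of 8.84e-04. SOD1, the cytosolic superoxide dismutase, differed by 0.31 ± 0.09 (SE; adjusted p = 0.0107). SOD2, the mitochondrial one, was lower in liver, at 9.86 to 10.80 against 11.41 to 12.78 in backfat, a difference of -1.49 ± 0.14 (SE; adjusted p = 1.60e-06). Among the 6 peroxiredoxins 3 were higher in liver and 1 lower. PRDX2, abundant in the cytosol of many cells, was at 9.55 to 10.44 in liver and 11.76 to 12.20 in backfat, a difference of -1.97 ± 0.09 (SE; adjusted p = 1.38e-09). PRDX4, the peroxiredoxin of the endoplasmic reticulum, was higher in liver by 1.64 ± 0.12 (SE).

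Of the 10 thioredoxin genes tested, 3 were higher in liver, 3 lower and 4 did not pass. TXNIP, which binds and inhibits thioredoxin, was at 11.83 to 12.70 in liver and 13.50 to 14.42 in backfat, a difference of -1.86 ± 0.13 (SE; adjusted p = 1.28e-07). TXN, thioredoxin itself, was lower in liver by 0.63 (difference -0.63 ± 0.11, SE), but its second probe set gave 0.13 and did not pass. TXNDC9, a thioredoxin-like protein that binds chaperonin, was lower in liver by 1.03 (difference -1.03 ± 0.09, SE). TXN2, the mitochondrial thioredoxin, was higher in liver by 1.41 ± 0.10 (SE). TXNRD1, the reductase that recharges thioredoxin, was at 7.99 ± 0.19 (SD, n = 8) in liver and 8.05 ± 0.39 in backfat and did not pass, with a difference of -0.06 ± 0.13 (SE).

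The sexes were then compared within each tissue, as female minus male averaged over the feeding levels. In liver 4 of the 48 tested genes passed, and all 4 were higher in females: NQO1, PRDX6, GSTA4 and PRDX4. Among all probe sets tested in liver 4.53% passed, 2.24% as higher in females. The median difference of the 48 genes was 0.12 and that of all probe sets 0.00, and 13 of the 48 had an unadjusted p under 0.05, against 19.2% of all probe sets.

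NQO1 was at 4.98, 4.90, 4.78 and 4.91 in the livers of males 14 to 17, and at 8.70, 8.46, 7.48 and 7.56 in those of females 18 to 21. The male values lay close together and close above the floor of 4, and every female value was above every male value. The female minus male difference was 3.16 ± 0.31 (SE; limma adjusted p = 0.00403), which is 8.91-fold. The call held in all 18 alternative analyses, of which 8 left out 1 array each.

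PRDX6, a peroxiredoxin that also has phospholipase activity, was at 10.75, 10.32, 10.28 and 10.59 in males 14 to 17 and at 11.77, 11.75, 11.77 and 11.53 in females 18 to 21. The sexes did not overlap. The difference was 1.22 ± 0.12 (SE; limma adjusted p = 0.00405), or 2.33-fold, and it also held in all 18 alternatives.

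GSTA4, the transferase with high activity towards the lipid peroxidation product hydroxynonenal, was at 4.39, 3.52, 3.85 and 4.38 in males 14 to 17, so that 2 of 4 male arrays were above 4. In females 18 to 21 it was at 7.45, 6.59, 6.78 and 5.0. The sexes did not overlap, but female 21 stood close to the males. The difference was 2.42 ± 0.49 (SE; limma adjusted p = 0.0437). This call was lost in 9 of 18 alternatives, 6 of them with 1 array left out, and the adjusted p ran from 0.0014 to 0.141.

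PRDX4 was at 11.46, 10.85, 10.76 and 12.01 in males 14 to 17 and at 11.57, 12.38, 12.94 and 11.82 in females 18 to 21. The sexes overlapped: male 17, on the high level, stood above females 18 and 21, both on the low level. The difference was 0.91 ± 0.19 (SE; limma adjusted p = 0.0486) and was lost whichever of the 8 arrays was left out, with an adjusted p from 0.00752 to 0.16 over all alternatives. A second, dimmer PRDX4 probe set gave 1.41 ± 0.27 (SE; adjusted p = 0.0382).

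**Figure D3:**
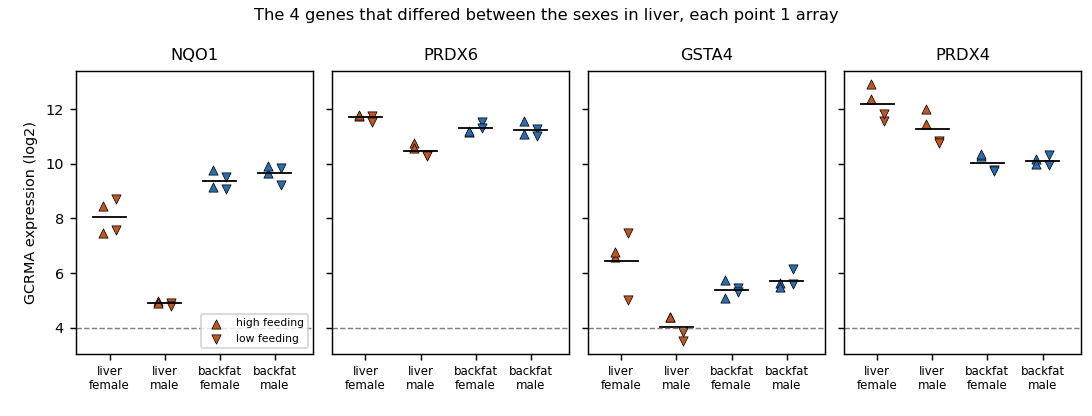
GCRMA expression values (log2, vertical axis) of the 4 genes that passed for sex in liver, each point 1 array, in liver (orange) and backfat (blue) of females and males, with triangles pointing up for the high and down for the low feeding level, bars at the mean of 4 arrays and the floor of 4 dashed. NQO1 and PRDX6 separate the sexes in liver, PRDX4 overlaps there, and all 4 genes overlap between the sexes in backfat.

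The other 44 genes did not pass in liver, and their differences ran from -0.63 for AKR7A2 to 0.88 for GPX3. By role, 1 of 7 conjugating genes, 1 of 4 epoxide and quinone genes and 2 of 12 superoxide and peroxide genes passed, and none of 15 alcohol, aldehyde and aldo-keto genes or 10 thioredoxin genes did, of which 4 and 0 had an unadjusted p under 0.05. The sexes did not overlap for 6 of the 48 genes, which is 12.5% against 11.8% of all probe sets. Beside NQO1, PRDX6 and GSTA4 these were ALDH1L1, with a difference of 0.52, NQO2, with 0.34, and TXNRD1, with -0.24, all named after their values were seen. ALDH1L1 encodes the folate enzyme that oxidises formyltetrahydrofolate. GSTA1 differed by 0.51 ± 0.22 (SE; limma adjusted p = 0.27) on its brighter probe set and by 1.38 ± 0.37 (adjusted p = 0.0998) on another. UGT2B31 differed by 0.53 ± 0.19 (SE; adjusted p = 0.187), CAT by 0.21 ± 0.13 and SOD1 by -0.37 ± 0.14. No gene of the 9 marker lists passed for sex in liver, and the hepatocyte markers had a median difference of 0.11, with 0 of 17 at an unadjusted p under 0.05.

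**Figure D4:**
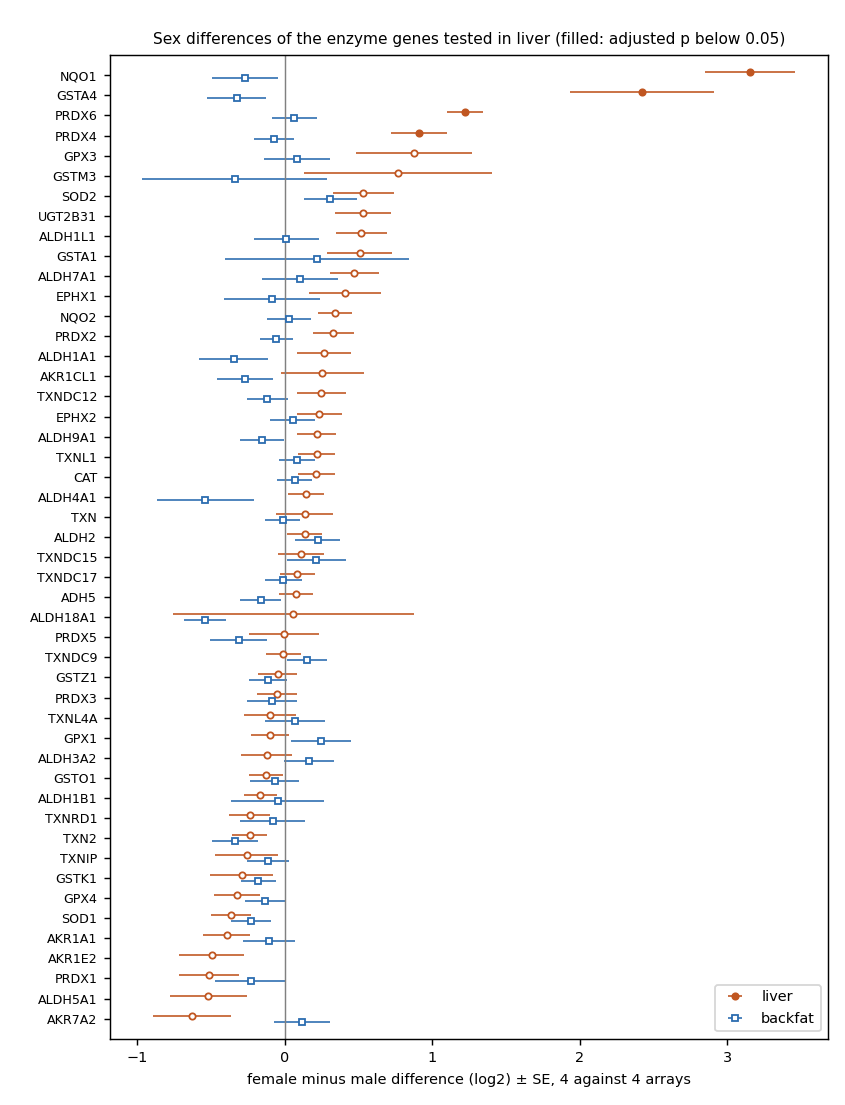
Female minus male difference (log2, horizontal axis) ± SE of 4 against 4 arrays for each of the 48 genes tested in liver (orange) and for those also tested in backfat (blue squares), ordered by the difference in liver. Filled symbols passed the adjusted p of 0.05. Only NQO1 at 3.16, GSTA4 at 2.42, PRDX6 at 1.22 and PRDX4 at 0.91 are filled, all in liver.

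In backfat none of the 46 tested genes passed for sex, with 0.11% of all probe sets passing by the same limma test. An unadjusted p under 0.05 was found for 1 of the 46, against 6.04% of all probe sets. That gene was ALDH18A1, at 8.27, 8.54, 8.15 and 7.98 in males 14 to 17 and at 7.62, 7.78, 7.78 and 7.59 in females 20 to 23. Its difference was -0.54 ± 0.14 (SE; adjusted p = 0.627), and it was the 1 gene of 46 whose sexes did not overlap, 2.17% against 3.54% of all probe sets. The next lowest p belonged to TXN2, with a difference of -0.34, SOD2, with 0.31, SOD1, with -0.23, ALDH4A1, with -0.54, and PRDX5, with -0.31.

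Whether the sex difference itself differed between liver and backfat was tested over all 16 arrays. It did for 3 of 49 genes, all with a higher female minus male difference in liver, while 2.21% of all probe sets passed, 1.09% in that direction. An unadjusted p under 0.05 was found for 7 of the 49, against 13.5% of all probe sets. The liver minus backfat contrast of the sex differences was 3.42 ± 0.41 (SE) for NQO1 (limma adjusted p = 0.00143), 1.16 ± 0.19 for PRDX6 (0.01) and 2.75 ± 0.57 for GSTA4 (0.0338). PRDX4 did not pass, with 0.98 ± 0.24 (SE; adjusted p = 0.062), although its second probe set did, with 1.69 (adjusted p = 0.017). Without the backfat arrays of male 15 and female 20 the contrast was 3.39 for NQO1, 1.16 for PRDX6 and 2.92 for GSTA4. The calls of PRDX6 and GSTA4 were lost in that run, which left low-fed backfat with male 16 and female 23 alone.

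In backfat NQO1 was at 9.65, 9.83, 9.21 and 9.92 in males 14 to 17 and at 9.53, 9.17, 9.78 and 9.06 in females 20 to 23, so that the sexes overlapped. PRDX6 lay between 11.03 and 11.56 on all backfat arrays, and GSTA4 between 5.08 and 6.15. The tissue difference within each sex was taken from the same fit after these values had been seen, and 65.7% of all probe sets passed in females and 65.1% in males. NQO1 was lower in liver in both sexes, by 1.34 in females (difference -1.34 ± 0.29, SE; adjusted p = 0.00164) and by 4.76 in males (difference -4.76 ± 0.29, SE; adjusted p = 4.94e-08). PRDX6 was higher in liver by 0.40 ± 0.13 (SE) in females (adjusted p = 0.0203) and differed by -0.75 ± 0.13 in males (adjusted p = 4.23e-04). GSTA4 was likewise higher in female liver, by 1.07 ± 0.41 (SE; adjusted p = 0.0364), and differed by -1.68 ± 0.41 in males (adjusted p = 0.00328). PRDX4 was higher in liver in both sexes, by 2.13 in females and 1.15 in males. Without the backfat arrays of male 15 and female 20 the female GSTA4 difference of 1.10 ± 0.49 (SE) no longer passed (adjusted p = 0.0804), while the other 7 of these calls held. For PRDX6 and GSTA4 the tissue difference averaged over the sexes had not passed, at -0.18 ± 0.10 (SE) and -0.31 ± 0.29.

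The feeding levels were compared as low minus high, averaged over the sexes. In liver 0 of 48 genes passed, as did 0% of all probe sets by limma. With all 16 arrays in 1 fit 11 probe sets passed, and 0 of 49 of these genes. In the liver fit 7 of the 48 had an unadjusted p under 0.05, against 11.5% of all probe sets. PRDX4 had the lowest p. It was at 11.46, 12.01, 12.38 and 12.94 on the high level and at 10.85, 10.76, 11.57 and 11.82 on the low level, with overlap. Its difference was -0.95 ± 0.19 (SE; adjusted p = 0.281), but the second PRDX4 probe set gave 0.08 and the mean of both -0.43. The next were TXNDC9 with -0.34, AKR1E2 with -0.62, EPHX2 with 0.42, TXNL4A, a spliceosome protein with a thioredoxin fold, with -0.46, and ALDH7A1, an enzyme of lysine breakdown, with 0.40. The levels did not overlap for TXN, TXNDC9 and TXNL4A, which is 6.25% of the 48 genes against 5.9% of all probe sets. For TXN they all but touched, with high-fed male 14 and low-fed male 16 both at 11.39.

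In backfat 0 of 46 genes passed for feeding, again with 0% of all probe sets by limma. With all 16 arrays in 1 fit 53 probe sets passed, and again 0 of 49 of these genes. An unadjusted p under 0.05 was found for 9 of the 46, against 11.1% of all probe sets. ALDH1L1 was at 9.08, 9.37, 8.71 and 9.47 on the high level (males 14 and 17, females 21 and 22) and at 10.10, 9.91, 10.44 and 9.90 on the low level (males 15 and 16, females 20 and 23). Its levels did not overlap, and the difference was 0.93 ± 0.22 (SE; adjusted p = 0.248), or 0.46 as the mean of its probe sets. EPHX2 was at 9.0, 8.64, 9.10 and 8.86 on the high level and at 8.51, 8.19, 8.34 and 8.24 on the low level. These did not overlap either, and the difference was -0.58 ± 0.15 (SE; adjusted p = 0.27).

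**Figure D5:**
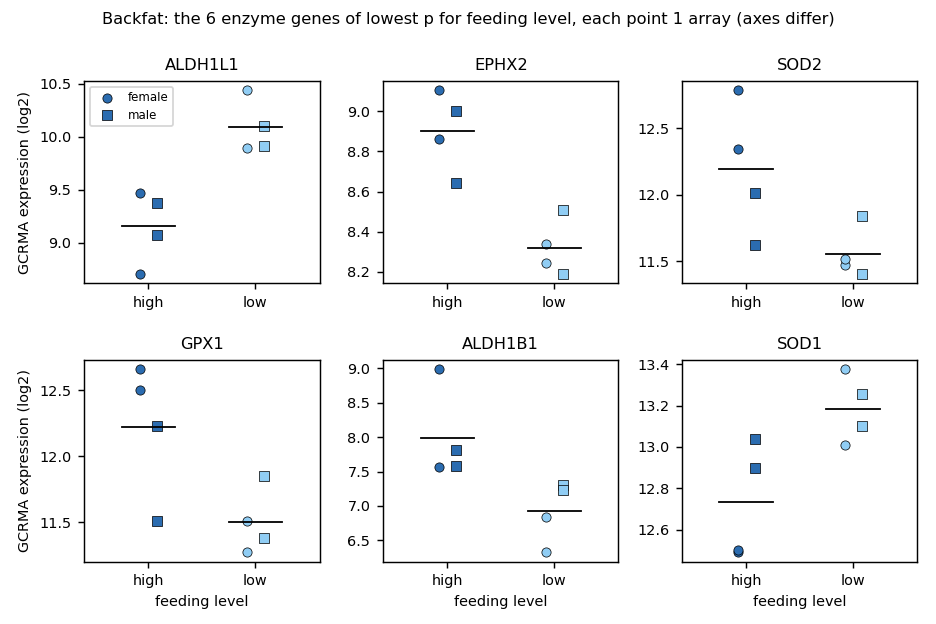
GCRMA expression values (log2, vertical axes that differ between panels) in backfat at the high and low feeding level for the 6 genes of lowest p, each point 1 array, with circles for females, squares for males and bars at the mean of 4 arrays. ALDH1L1, EPHX2 and ALDH1B1 do not overlap between the levels, SOD2, GPX1 and SOD1 do, and none of the 6 passed the adjusted p of 0.05.

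The other genes of lowest p in backfat were SOD2 with a difference of -0.63 ± 0.18 (SE), GPX1 with -0.72 ± 0.20, ALDH1B1 with -1.06 ± 0.32 and SOD1 with 0.45 ± 0.13. ALDH1B1 was at 7.81, 7.58, 8.99 and 7.57 on the high level, where female 21 stood above the rest, and at 7.30, 7.23, 6.85 and 6.32 on the low level. The levels did not overlap for 5 of 46 genes, which is 10.9% against 6.61% of all probe sets. These were ALDH1L1, GSTK1 and PRDX2, higher on the low level, and ALDH1B1 and EPHX2, higher on the high level. Marker genes of other cells were also compared between the 2 levels, and none passed. The mean of 10 macrophage markers was 5.72, 4.97, 6.27 and 5.43 on the high level and 5.05, 4.74, 4.71 and 4.27 on the low level, and the median difference of the 9 tested was -1.23, with 0 passing and 5 at an unadjusted p under 0.05. The 12 hepatocyte markers tested had a median difference of 1.80, with 0 passing and 2 at an unadjusted p under 0.05, and both arrays with the highest hepatocyte mean were on the low level. The part of these cells in the feeding values was not tested. Without male 15 and female 20 the difference was 0.75 for ALDH1L1, -0.69 for EPHX2 and -1.21 for ALDH1B1.

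No gene passed for an interaction with feeding. On arrays simulated with the spreads of these data, the test of sex by feeding recovered 20% of changes of 2 (log2) in liver and 46% in backfat. A missing call there does not show an absence of interaction. For sex by feeding, 0 of 48 genes passed in liver and 0 of 46 in backfat, with 0% of all probe sets by limma in either tissue. An unadjusted p under 0.05 was found for 0 genes in liver, against 5.43% of all probe sets, and for 2 in backfat, against 5.27%. The lowest p belonged to UGT2B31, with 0.88 ± 0.37 (SE), and ALDH1B1, with -0.50 ± 0.22, in liver, and to ALDH3A2, a fatty aldehyde dehydrogenase, with -1.03 ± 0.34, and SOD2, with -0.88 ± 0.35, in backfat. For feeding by tissue 0 of 49 genes passed, against 0.0215% of all probe sets, and 9 had an unadjusted p under 0.05, against 8.77%. EPHX2 had the lowest p, with a low minus high difference of 0.42 in liver and -0.58 in backfat and a contrast between them of 1.0 ± 0.21 (SE; limma adjusted p = 0.193). ALDH1L1 followed with -1.01 ± 0.29 (SE; adjusted p = 0.361).

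A further 6 lists of genes that work with these enzymes were counted beside them, and their counts stand beside the same shares of all probe sets: 75.7% passing for tissue, 32.2% higher and 43.6% lower in liver, 4.53% for sex in liver and 2.21% for sex by tissue. The list of NRF2 partners and glutathione supply had 21 tested genes, of which 13 were higher and 6 lower in liver than in backfat. Its genes of lowest p were MSRA, a methionine sulfoxide reductase, with a liver minus backfat difference of 3.22 ± 0.11 (SE), GCLC, the catalytic subunit of glutathione synthesis, with 4.73 ± 0.19, ME1, malic enzyme, with -6.52 ± 0.28, and TALDO1, transaldolase, with -2.31 ± 0.11. For sex in liver 0 of the 21 were higher in females and 3 lower: GLRX2, a mitochondrial glutaredoxin, with -1.82 ± 0.20 (SE; limma adjusted p = 0.00601), BLVRA, biliverdin reductase, with -1.14 ± 0.13 (0.00669), and MSRB1, a methionine sulfoxide reductase, with -0.72 ± 0.13 (0.0308). GLRX2 and BLVRA also passed for sex by tissue, with -2.0 ± 0.30 and -1.19 ± 0.23, and without the backfat arrays of male 15 and female 20 only GLRX2 did.

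Of 13 xenobiotic receptors and liver factors, 8 were higher and 2 lower in liver than in backfat, or 7 and 1 without the 2 backfat arrays. HNF4A, FOXA1 and FOXA2, transcription factors of hepatocytes, were below 4 on every backfat array. Liver stood above that floor by at least 122-fold for HNF4A, 34.7-fold for FOXA1 and 51.4-fold for FOXA2, and PGRMC1, a heme-binding partner of cytochromes, differed by 3.33 ± 0.09 (SE). None of the 13 passed for sex in liver, and 1 had an unadjusted p under 0.05. Of 20 phase I cytochromes and monooxygenases, 18 were higher and 1 lower in liver, or 18 and 0 without those arrays. The cytochromes CYP2C42 and CYP2C49 were at least 40.1-fold (CYP2C42) and 570-fold (CYP2C49) higher in liver, CES3, a carboxylesterase, had a liver mean of 11.14 with 4 of 8 backfat arrays above 4, and CYP3A29 one of 13.68 with 2 of 8. In liver 3 of these 20 were higher and 6 lower in females. The higher ones were CYP2A19 (below 4 on all male livers), CYP2E1, with 2.39 ± 0.26 (SE), and FMO5, with 5.14 ± 0.59. CYP2C36 had the lowest p of the lower ones, with -7.84 ± 0.87 (SE). It was above 4 on 3 of 4 female and 4 of 4 male livers. For sex by tissue 2 were higher, CYP2A19 and FMO5, and 4 lower, led by CYP2C36 and CBR1. CBR1, a carbonyl reductase, was above 4 on 1 of 4 female and 4 of 4 male livers. Without the 2 backfat arrays 2 were higher and 1 lower for sex by tissue, and CBR1 did not pass.

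Of 10 genes of other conjugation, 7 were higher and 2 lower in liver than in backfat. GNMT, which methylates glycine, INMT, an indole methyltransferase, and PAPSS2, which makes the sulfate donor, were below 4 in all backfat and higher in liver by at least 55.7-fold (GNMT), 73.3-fold (INMT) and 4.18-fold (PAPSS2), and SULT1E1, estrogen sulfotransferase, had a liver mean of 12.77 with 1 of 8 backfat arrays above 4. For sex in liver 2 were higher in females, PAPSS2 with 2.29 ± 0.20 (SE; adjusted p = 0.00274) and SULT1A3, with 3 of 4 male arrays above 4, with 4.20 ± 0.51 (0.00874), and 2 lower, SULT1E1 with -1.81 ± 0.14 (0.0016) and GNMT with -1.23 ± 0.12 (0.00347). PAPSS2, SULT1A3 and SULT2A1 passed as higher for sex by tissue and SULT1E1 as lower, with 2.15, 4.36, 3.28 and -1.54, and SULT1A3 did not pass without the 2 backfat arrays. SULT1A3 and its near-identical relatives may share a probe set.

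Of 7 transporters, 6 were higher in liver than in backfat and 0 lower. ABCB11, the bile salt export pump, SLC10A1, the bile salt uptake carrier, and ABCC2, which exports conjugates, were below 4 in all backfat and higher by at least 55.5-fold (ABCB11), 318-fold (SLC10A1) and 13.5-fold (ABCC2), and SLCO2B1, an uptake carrier, differed by 4.67 ± 0.24 (SE). ABCB1, the P-glycoprotein, was the 1 of 7 that passed for sex in liver, higher in females by 0.92 ± 0.14 (SE; limma adjusted p = 0.0191). For sex by tissue 0 of 7 passed, but ABCB1 did without the 2 backfat arrays, with 1.60 ± 0.25 (adjusted p = 0.0251). Of 15 genes that give rise to aldehydes or peroxides, 10 were higher and 2 lower in liver than in backfat, or 9 and 2 without the 2 backfat arrays. MAOB, a monoamine oxidase, UOX, urate oxidase, and HAO1, a glycolate oxidase, were below 4 in all backfat and higher by at least 245-fold (MAOB), 61.5-fold (UOX) and 139-fold (HAO1), and ACOX2, a peroxisomal oxidase, differed by 3.84 ± 0.14 (SE). DHRS4, a carbonyl reductase of peroxisomes, was the 1 of 14 that passed for sex in liver, lower in females with -2.73 ± 0.17 (SE; adjusted p = 6.21e-04), and it passed for sex by tissue with -2.21 ± 0.25.

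In all 6 lists 0 genes passed for feeding in either tissue, for sex in backfat or for an interaction with feeding. Without the 2 backfat arrays the cytochrome CYP3A46, of the phase I list, had a feeding by tissue contrast of 4.59 ± 0.44 (SE). That run left low-fed backfat with male 16 and female 23 alone, and the gene was named after its value was seen. For feeding in liver an unadjusted limma p under 0.05 was found for 3 of 21, 0 of 13, 2 of 20, 4 of 10, 0 of 7 and 1 of 14 genes, in the order above, against 11.5% of all probe sets. For feeding in backfat it was found for 2 of 20, 0 of 8, 1 of 12, 1 of 6, 0 of 3 and 3 of 11, against 11.1%, and for sex in backfat for 1, 2, 0, 1, 0 and 1 of these, against 6.04%.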

How the data were processed

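Per the labels' protocols, RNA was isolated with a kit (RiboPure) and labelled for Affymetrix porcine arrays. The deposited log2 values were made with GCRMA, named without a version in the submitters' processing notes. Its settings and the set of arrays normalized at once are not stated here, nor is any batch.

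Of 24123 probe sets, 124 controls were left out. Of all, 10099 had 1 symbol, 198 several and 13826 were not listed. The 55 genes have 80 probe sets, 19 genes several. All 55 matched the RefSeq table of assembly Sscrofa11.1 by Entrez ID, which changed 0 symbols. Old symbols, and probe sets shared by near-identical genes such as those of the GST, UGT and SULT families, limit the names. No coordinates or sequences are given.

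Groups came from the labels. A probe set was tested when above 4 on at least 2 arrays of the fit, so that 12617 entered the liver fit, 12686 the backfat fit and 13962 the fit of both tissues. Group means of sex by feeding (4 within a tissue, 8 over both) were fitted with limma 3.58.1 (lmFit, eBayes) in R 4.3.3. Adjusted p-values are limma's Benjamini-Hochberg values over all probe sets of a test, with 0.05 as the threshold. Where all arrays of a group were below 4, the fold is the other mean against 4. Arrays of a group carry different animal numbers.

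The members, the gene lists and the tests were chosen with earlier results of these data known. The text names up to 10 genes in each direction for tissue, all that passed for sex in liver, the 6 of lowest p for sex in backfat and for feeding, the 2 of lowest p or those that passed for interactions, up to 4 genes per list, and a set of well-known members such as CAT, SOD1 and TXN.

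Alternatives were other filters, normalizations and variance models, values under 4 set to 4, the mean of a gene's probe sets, all 16 arrays in 1 fit, the animal as a block, each array left out and, added after the data were seen, backfat without male 15 and female 20. By their animal numbers, males 14 to 17 gave both tissues. Correlations of their deviations from the group means were 0.0874 for males 14 and 17 and 0.0549 for males 15 and 16. The 2 arrays of a group deviate in mirror image, so both males of a group necessarily share 1 value. Females were left unpaired, since numbers 20 and 21 are low-fed in one tissue and high-fed in the other. The design text gives 8 animals but the labels hold 10 animal numbers, so whether liver and backfat of females came from the same animals is not known. This bears on the females' feeding labels and on the contrasts across tissues. On simulated arrays the comparison of sex in liver, with 12617 probe sets, recovered 50% of changes of 1 and 90% of changes of 2 on the log2 scale, with 11 false calls. Recovery was lower for the interactions with feeding. It was 0% of changes of 1 and 20% of changes of 2 for sex by feeding in liver, and 0% and 46% in backfat. For feeding by tissue it was 34% and 72%.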

Additional observations from a re-analysis of the deposited data

Results flagged for a closer look

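Arrays that lay far from the rest of their group were looked for in 84 groups of 4 or 8 arrays of the named genes, and 5 were found, where chance gives about 1 in 20 groups. In backfat UGT2B31 was highest on male 14, at 3.85, below the floor of 4. AKR1E2 was lowest there on female 20, at 2.14, also below the floor. GPX4 was highest in liver on male 17, at 11.39, with the next array at 10.86. PRDX6 was lowest among female livers on female 21, at 11.53, with the next at 11.75, and this array was still above every male liver. ALDH1B1 was highest in backfat of the high level on female 21, at 8.99, with the next at 7.81. Among backfat arrays female 21 had the highest mean of macrophage (6.27), adipocyte (11.89) and cholangiocyte (5.65) markers and the lowest hepatocyte mean (3.27). The part of these cells in the ALDH1B1 value was not tested.

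The sex difference in liver differed from that in backfat, by the test of the difference itself, for 3 genes. The contrast was 3.42 for NQO1, 2.75 for GSTA4 and 1.16 for PRDX6, and all 3 were higher in females in liver, while their sexes overlapped in backfat. GSTA4 lost this call in 16 of 26 alternatives and PRDX6 in 1 of 26. Without the backfat arrays of male 15 and female 20 both calls were lost, at contrasts of 2.92 for GSTA4 and 1.16 for PRDX6. Low-fed backfat was then left with male 16 and female 23 alone.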

How the results depend on the processing

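Of 51 results for single genes, 47 kept their direction and their side of the threshold in every alternative. Of 1152 alternatives 1115 did so, 37 lost a call and 0 reversed. The results for sex in backfat, feeding and its interactions had no call to lose. All 20 for tissue kept theirs. In some alternatives GSTA4 and PRDX4 lost the call for sex in liver, and GSTA4 and PRDX6 that for sex by tissue. The number of genes passing for sex in liver was 4 and fell to 2 with no filter and to between 2 and 3 with 1 array left out (2 without any 1 of males 14 to 17 or of females 19 and 20). It was 3 for sex by tissue, between 2 and 3 with 1 array left out and 1 without the backfat arrays of male 15 and female 20. GSTA4 for sex in liver lost its call with no filter (adjusted p = 0.141), with values under 4 set to 4 (0.0555) and as the mean of its probe sets (difference 1.21, 0.0529). The other GSTA4 probe set in that mean stood at 1.70 over the 16 arrays, below the floor of 4. PRDX4 lost it after a shift to a common median (0.0532), after quantile normalization (0.0635) and with no filter (0.116). GSTA4 for sex by tissue lost it in 16 of 26 alternatives. For tissue, 40 to 45 genes passed in every alternative. The replicate block on the males' animal numbers left 42 genes for tissue, 4 for sex in liver and 3 for sex by tissue, and males alone with a fixed block gave 40 for tissue, so the block moved no count of these genes by over 1.5 times. Over all probe sets, 572 passed for sex in liver, 177 to 449 with 1 array left out, 333 with no filter, 907 with all 16 arrays in 1 fit and 910 with the block. In these last 2 fits 27 and 26 passed for sex in backfat (14 in the backfat fit), 11 and 11 for feeding in liver (0) and 53 and 54 for feeding in backfat (0), with 0 of 49 of these genes in each. For sex by tissue 308 passed, and 174 to 386 with 1 array left out. With 2 arrays per group, the number of arrays limits the precision, and signal near 4 limits GSTA4, GSTM3, GSTA1 and, in male liver, NQO1. A missing call for feeding does not show equal levels.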
